A study of Mus musculus with 6 samples.

Results

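The SR and hnRNP splicing factors are the genes of 2 large families of RNA-binding proteins, their kinases and a few partners at the splice sites. The members were chosen by name: protein-coding rows whose symbol begins with Srsf or Hnrnp, with Tra2a, Tra2b, Clk1 to Clk4, U2af1, U2af2, Sf3b1, Ddx5, Ddx17, Rbm5, Rbm25, Rbm39, Prpf4b and Luc7l3. This gave 47 of 54532 genes in the table, and all 47 passed the filter on low counts, among 16075 genes tested. By role there were 13 SR proteins (11 Srsf genes and both Tra2 genes), 5 kinases, 20 hnRNPs, 7 splice site factors and 2 helicases.

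The cells were splenic CD4+ T cells, taken from C57BL/6 mice in the acute phase of EAE (experimental autoimmune encephalomyelitis, in which immunisation turns T cells against myelin). Bulk RNA was sequenced from 3 Ogt-KD mice, whose genotype is Ogtfl/wt CD4-Cre. The comparison group was 3 control mice labelled wild type. Ogt encodes O-GlcNAc transferase, which attaches a single sugar to serines and threonines of nuclear and cytoplasmic proteins. Cd4 regulatory elements drive this Cre, so it acts in developing T cells of the CD4 and CD8 lineages alike. Ogt is X-linked, so in a mouse with 1 floxed and 1 wild-type allele, inactivation of one X leaves either allele in use in a given cell. All 6 mice had EAE, no Cre or floxed allele is named for the controls, and no age or sex is stated in the labels used here. An effect of Ogt and one of the Cre or of linked DNA cannot be told apart.

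SR proteins bind short enhancers in exons through RNA recognition motifs and recruit the splicing machinery through domains rich in arginine and serine. hnRNPs coat the nascent transcript and often repress nearby splice sites. The Clk kinases phosphorylate the arginine-serine domains and release SR proteins from nuclear speckles. Many of these genes limit their own output: a protein that is in excess promotes inclusion of an exon with a premature stop codon in its own transcript, which then goes to nonsense-mediated decay. Many splicing factors carry O-GlcNAc, and in human cells inhibition of OGT has been reported to change the splicing of retained introns. In T cells, splicing of the CD45 gene Ptprc, which switches on activation, is a known target of Hnrnpll.

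Annotated exons that hold a premature stop are shown first because the deposited values sum all transcripts of a gene, so RNA with and without such an exon cannot be separated here. Their use in these cells was not measured. In GENCODE M21, 34 of the 47 members (72.3%) had an annotated transcript of the nonsense-mediated decay class, against 28.8% of the 12510 tested protein-coding genes in that annotation. A transcript of the retained intron class was annotated for 37 members (78.7%), against 58.7% of those genes. All 5 kinases, all 7 splice site factors and 11 of the 13 SR proteins had a decay transcript, as did 10 of the 20 hnRNPs. In 14 members a decay transcript ended its reading frame inside an internal exon that no protein-coding transcript of the gene overlapped, over 19 such stops. The lines below give the last coding bases up to that stop for 6 of them, 5′ to 3′ on the gene's strand (GRCm38), with the stop codon in capitals.
Srsf3, chr17:29039458-29039487, plus strand, in an exon of 456 bases: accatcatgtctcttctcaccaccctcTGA
Srsf7, chr17:80205054-80205081, minus strand, in an exon of 460 bases: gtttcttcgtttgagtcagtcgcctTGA
Tra2b, chr16:22259181-22259210, minus strand, in an exon of 276 bases: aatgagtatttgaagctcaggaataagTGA
Tra2a, chr6:49252965-49252994, minus strand, in an exon of 306 bases: aaaaaattgaacagaagattggtcagaTAG
Hnrnpll, chr17:80044976-80045005, minus strand, in an exon of 83 bases: ctgaaacttcttgaaagaagcccacttTGA
Prpf4b, chr13:34899374-34899403, plus strand, in an exon of 141 bases: aggagtcttggtcatgtcgagcaagagTAG
Among these 6 examples, the Srsf3, Srsf7, Tra2b and Tra2a stops are in longer exons than those of Hnrnpll and Prpf4b. This order does not hold for SR genes over all 19 stops. The Srsf11 exons, not printed, had 109 and 117 bases, while an exon of Rbm39, a splice site factor, had 155.

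Total counts ran from 18127031 to 25683453 per library, and the T cell genes Cd3e and Cd4 lay between 241 and 903 CPM (counts scaled to library size, with TMM factors) in every library. Replicate 3 of both groups stood apart on principal component 1 (44.8% of variance), and several results are also given without one or both of these libraries. Ogt itself stood at 662, 599 and 459 CPM in Ogt-KD and 599, 628 and 562 CPM in control libraries. Its fold change was -0.06 in log2 (SE 0.15), with an edgeR adjusted p = 0.981, and 0.077 with Ogt-KD replicate 3 left out. A gene count includes exons that a floxed deletion leaves in place and does not measure the deletion.

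No member passed the test in either direction. In edgeR's quasi-likelihood test with Benjamini-Hochberg adjustment over all genes, 0 of the 47 members had an adjusted p under 0.05, against 1 of 16075 genes (0.00622%). At an unadjusted p under 0.05 there were 2 members, against 1209 genes (7.52%). They were Hnrnpd on the higher side, where 5.04% of genes lay, and Prpf4b on the lower side, where 2.48% lay. DESeq2 called 0 members among 111 genes (0.678%) and limma-voom 0 members among 1 gene (0.00622%). At an unadjusted p under 0.05, DESeq2 had 2 members against 4.45% of genes and limma-voom 2 against 7.04%. RLE size factors also gave 2 members (against 7.49%), as did testing with no filter (against 5.4%), and after adjustment both gave 0 (against 0.00622% and 0.0141%). With the replicate number as a block, 0 members passed (against 0.292%). The authors' deposited table held 0 members among 110 genes (0.417%) with an adjusted p under 0.05, and the lowest value of a member there was 0.549, for Hnrnpd. With each library left out in turn, 0 members passed. The share of all genes that passed was 0.00599% without Ogt-KD replicate 1 and 0.012% without replicate 2 of that group. Leaving out a control gave 0.00612% for replicates 1 and 2 and 0.00598% for replicate 3. At an unadjusted p under 0.05 these fits held 0 members against 4.7% of genes, 0 against 4.32%, 0 against 4.51%, 0 against 6.63% and 1 against 5.92%, in the same order.

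The members' fold changes were small and their intervals narrow. In log2, the members' median difference of Ogt-KD from control was -0.04, with 15 members above and 32 below 0, beside a median of -0.005 and 7877 above and 8198 below over all genes tested. The values ran from -0.23 for Prpf4b to 0.28 for Hnrnpd. For 45 of the 47 members (95.7%) the 95% interval excluded a 1.5-fold difference in either direction, against 45.7% of all genes tested. The exceptions were Clk1, from -0.60 to 0.42, and the sparsely counted Srsf12, from -0.95 to 0.54. Within a group, the SD of log2 CPM had a median of 0.11 over the members and 0.21 over all genes tested. Neither trait was particular to the members. In the other splicing lists given below, the interval excluded a 1.5-fold difference for 80% (nonsense-mediated decay) to 100% (catalytic spliceosome, SR protein partners) of the genes. The median SD of those lists ran from 0.11 to 0.16. Members' counts ran from 29 to 57665 per library. In bulk RNA, fewer cells of a type and less RNA per cell cannot be told apart.

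**Figure D1:**
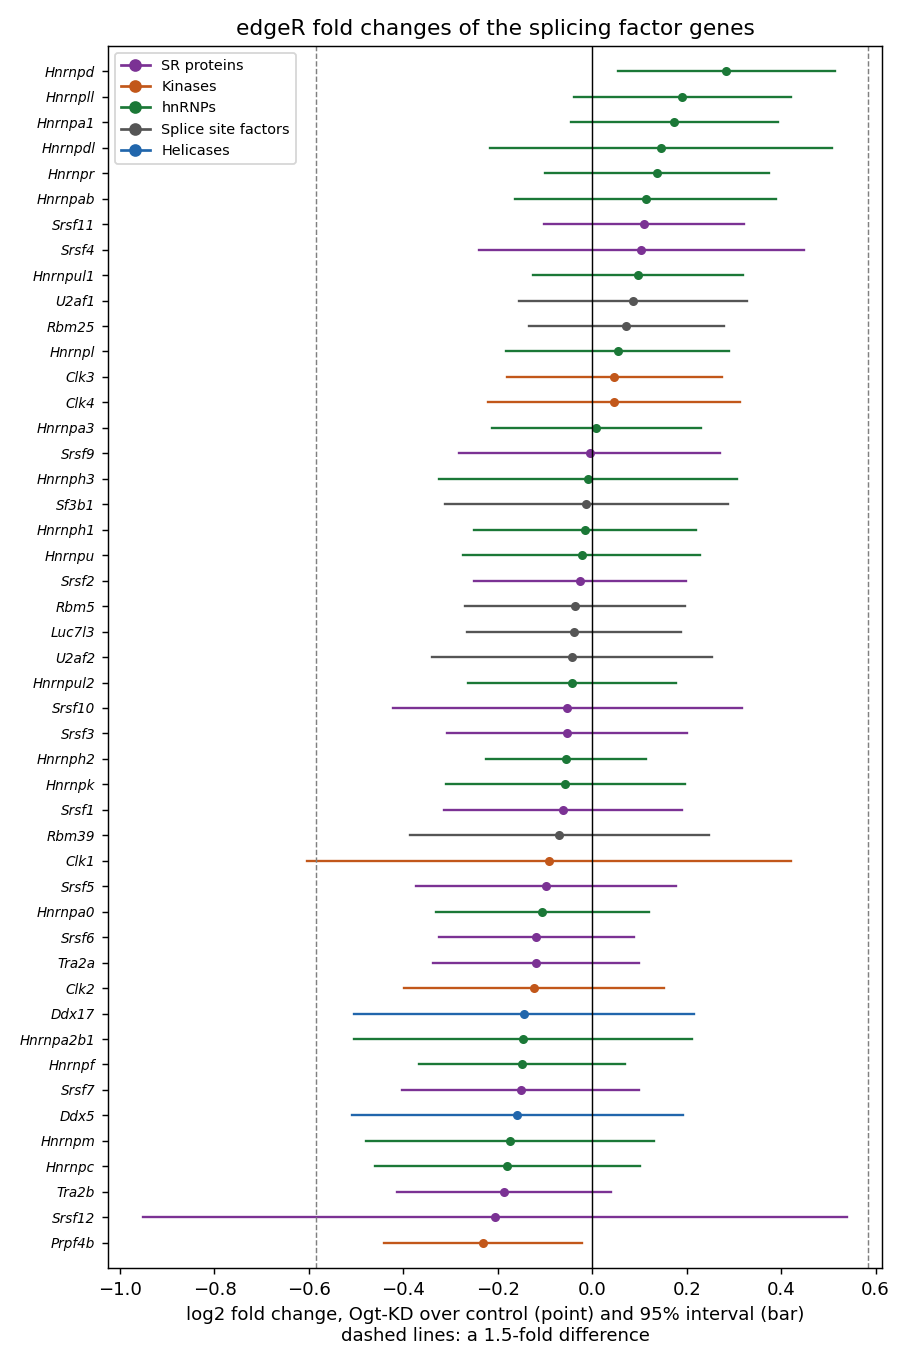
Fold change from edgeR in log2 (Ogt-KD over control) for each of the 47 members (points, coloured by role) with its 95% interval (bars), ordered by size; dashed lines mark a 1.5-fold difference. The interval lies between the dashed lines for 45 members, and crosses one for Clk1 and Srsf12.

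Levels between genes were compared per length, as the authors' FPKM. The RNA helicase gene Ddx5, a coactivator that also takes part in microRNA processing, was the highest member at 350.1 ± 38.0 FPKM in Ogt-KD and 392 ± 39.9 FPKM in control libraries (SD, n = 3 each). Hnrnpa0, whose protein binds AU-rich elements, followed at 207 ± 10.2 and 223 ± 7.01 FPKM in Ogt-KD and control libraries. Srsf5 stood at 200.3 ± 19.3 and 215 ± 11.2 FPKM, and Hnrnpa1, a repressor of exon inclusion, at 219.6 ± 2.61 and 195 ± 3.25 FPKM, in the same order of groups. The ranks from the second to the fourth therefore differ between the groups. Srsf12, a factor known for opposing other SR proteins, was the lowest at 0.522 ± 0.116 FPKM in Ogt-KD and 0.604 ± 0.167 FPKM in control libraries. Next above it came Hnrnpr, at 7.73 FPKM over 6 libraries, and Hnrnpll, at 7.96 FPKM. Together the 47 members held 17886, 17878 and 17229 CPM in Ogt-KD libraries and 18959, 18359 and 17749 CPM in control libraries. The highest Ogt-KD sum lay above the lowest control sum.

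**Figure D2:**
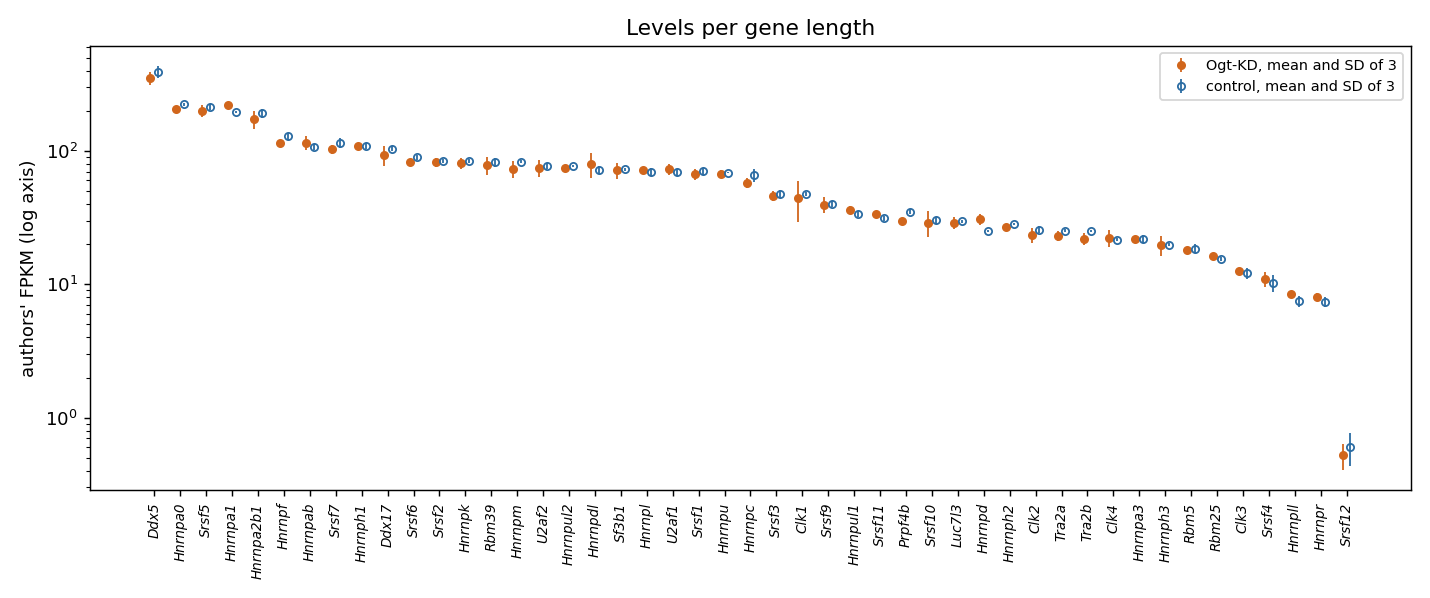
Authors' FPKM (log axis) of the 47 members, ordered by their mean over 6 libraries; filled points are the mean and SD of 3 Ogt-KD libraries and open points those of 3 control libraries. The levels fall from Ddx5 at 371 FPKM to Srsf12 at 0.563 FPKM over all libraries, and the group means lie close together at every step.

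Among the SR proteins, 11 of 13 had a log2 fold change below 0 and 2 above, with a median of -0.06, and 0 passed the test. The median was -0.10 with Ogt-KD replicate 3 left out, and -0.10 without replicate 3 of both groups. Tra2b, which binds purine-rich exonic enhancers, held 192, 193 and 226 CPM in Ogt-KD libraries and 239, 227 and 231 CPM in control libraries. The groups did not overlap, although Ogt-KD replicate 3 came close to the lowest control (log2 fold change -0.19, SE 0.10, edgeR adjusted p = 0.715). Srsf6, another enhancer-binding SR protein, held 392, 407 and 397 CPM in Ogt-KD libraries and 425, 449 and 424 CPM in control libraries. These groups did not overlap either (-0.12, SE 0.09, edgeR adjusted p = 0.858). Srsf7, an SR protein with a zinc knuckle, had 235, 258 and 219.8 CPM in Ogt-KD and 283, 271 and 239 CPM in control libraries, so the groups overlapped (-0.15, SE 0.11). Tra2a, the paralogue of Tra2b, had 168, 173 and 146 CPM in Ogt-KD and 176, 179 and 173 CPM in control libraries, touching at 173 CPM (-0.12, SE 0.09). Srsf5, the most abundant SR gene, had 739.7, 792 and 884 CPM in Ogt-KD and 902, 804 and 879 CPM in control libraries (-0.10, SE 0.12), so the groups overlapped. The 2 members above 0 were Srsf11 (0.11, SE 0.09) and Srsf4 (0.10, SE 0.15). Srsf1, the prototype SR protein, had -0.06 (SE 0.11) and Srsf2, a speckle component, -0.03 (SE 0.10).

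The 5 kinases lay above 0 in 2 cases and below in 3, with a median of -0.09 in log2, and Clk1 had the largest within-group spread of any member. Clk1, a dual-specificity kinase of SR proteins whose own transcript keeps introns in the nucleus, had 287, 303 and 504 CPM in Ogt-KD libraries and 391, 372 and 402 CPM in control libraries. Ogt-KD replicates 1 and 2 were below every control and replicate 3 was above every control, so the fitted log2 fold change was -0.09 with an SE of 0.22. With that library left out it was -0.40 (unadjusted p = 0.00216, edgeR adjusted p = 0.122), and without replicate 3 of both groups -0.37 (adjusted p = 0.123). Clk4, the closest paralogue of Clk1, had 119, 119 and 151 CPM in Ogt-KD libraries and 129, 126 and 121 CPM in control libraries, with the same order: replicate 3 highest and the other Ogt-KD libraries below every control (0.05, SE 0.11, and -0.08 without Ogt-KD replicate 3). Clk2 went the other way in that library, with 136, 134 and 106 CPM in Ogt-KD and 137, 144 and 128 CPM in control libraries (-0.12, SE 0.12). Clk3 had 110.3, 109.9 and 98.8 CPM in Ogt-KD and 101, 113 and 94.7 CPM in control libraries (0.05, SE 0.10). Its groups overlapped over nearly the whole range.

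Prpf4b, a kinase that phosphorylates proteins of the tri-snRNP during spliceosome assembly, had 258, 262 and 236 CPM in Ogt-KD libraries and 298, 307 and 283 CPM in control libraries. All 3 Ogt-KD libraries lay below all 3 controls (log2 fold change -0.23, SE 0.09, 95% interval -0.44 to -0.02, unadjusted p = 0.0348, edgeR adjusted p = 0.624). Without Ogt-KD replicate 3 it had -0.19 (adjusted p = 0.277). It passed in no fit.

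**Figure D3:**
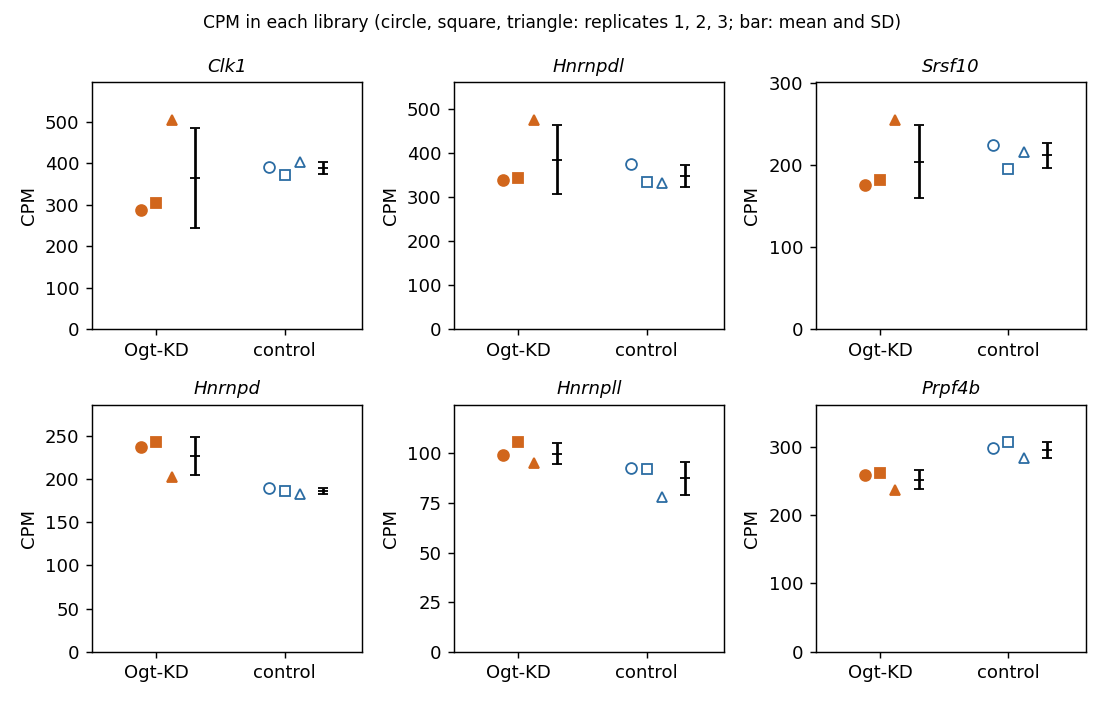
CPM of 6 members in each library, Ogt-KD on the left and control on the right of each panel, with symbols for the replicate and bars for the mean and SD of 3. Clk1, Hnrnpdl and Srsf10 have their highest value in Ogt-KD replicate 3, while Hnrnpd, Hnrnpll and Prpf4b keep the groups apart in all 6 libraries.

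Among the 20 hnRNPs, 9 lay above and 11 below 0 with a median of -0.01 in log2, which was 0.025 with Ogt-KD replicate 3 left out. None passed in edgeR, where 1 had an unadjusted p under 0.05. Hnrnpd, also known as AUF1, binds AU-rich elements in cytokine and other short-lived mRNAs. It held 237, 242 and 202 CPM in Ogt-KD libraries and 190.0, 187 and 183 CPM in control libraries. Every Ogt-KD library was above every control, and the controls lay close together (log2 fold change 0.28, SE 0.10, 95% interval 0.05 to 0.51, unadjusted p = 0.0221, edgeR adjusted p = 0.596). Leaving out Ogt-KD replicate 3 gave 0.36 (adjusted p = 0.116) and without replicate 3 of both groups 0.35 (adjusted p = 0.119). Hnrnpll, which represses the variable exons of Ptprc in activated and memory T cells, held 98.9, 106 and 94.9 CPM in Ogt-KD libraries and 92.4, 91.9 and 77.8 CPM in control libraries. The groups did not overlap (0.19, SE 0.10, adjusted p = 0.712). Hnrnpa1 had 708, 691 and 695 CPM in Ogt-KD libraries and 633, 617 and 607 CPM in control libraries. Its gap between groups was wider than the range within either (0.17, SE 0.09, adjusted p = 0.732). Its partner Hnrnpa2b1, which binds much the same RNA, had 1229, 1265 and 935 CPM in Ogt-KD and 1282, 1353 and 1159 CPM in control libraries (-0.15, SE 0.15), so the groups overlapped and the sign was the opposite one.

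On the lower side, Hnrnpf, which binds G-rich tracts, had 354, 349 and 359.6 CPM in Ogt-KD and 422, 373 and 385 CPM in control libraries (-0.15, SE 0.09, edgeR adjusted p = 0.804). Hnrnpa0 had 572, 529 and 575 CPM in Ogt-KD and 585, 602 and 616 CPM in control libraries (-0.11, SE 0.10). Hnrnph2, an X-linked relative of Hnrnpf, averaged 119 ± 1.24 CPM in Ogt-KD and 124 ± 2.62 CPM in control libraries (SD, n = 3 each; -0.06, SE 0.07). None of these groups overlapped, and each difference was under 0.2 on the log2 scale. The remaining hnRNPs ran from -0.18 for Hnrnpc, which binds uridine tracts, to 0.15 for Hnrnpdl, the nearest relative of Hnrnpd. Counting all roles, 9 members had groups that did not overlap, against 13.3% of all genes tested. They were Hnrnpd, Hnrnpll and Hnrnpa1 on the higher side (7.43% of all genes) and Prpf4b, Tra2b, Srsf6, Hnrnpf, Hnrnpa0 and Hnrnph2 on the lower side (5.88% of all genes).

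The splice site factors had 2 of 7 values above 0, a median of -0.04 in log2 and a range from -0.07 to 0.09. The median was 0.012 with Ogt-KD replicate 3 left out. Sf3b1, the U2 snRNP subunit at the branch point, had 762, 758 and 949.8 CPM in Ogt-KD libraries and 862, 814 and 815 CPM in control libraries (-0.01, SE 0.13). U2af2, which binds the polypyrimidine tract, had 350.1, 320.5 and 261 CPM in Ogt-KD and 314, 334 and 310.1 CPM in control libraries (-0.04, SE 0.13). Its partner U2af1, which contacts the AG at the intron's end, had a log2 fold change of 0.09 (SE 0.10). Rbm39, a U2AF-related factor, had 499, 501 and 633 CPM in Ogt-KD and 618, 523 and 574 CPM in control libraries (-0.07, SE 0.13). Luc7l3, a U1-associated protein, had -0.04 (SE 0.10), Rbm25, which works with it at weak 5′ splice sites, 0.07 (SE 0.09), and Rbm5, a regulator of Fas exon choice, -0.04 (SE 0.10). In all 7 genes the groups overlapped.

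The helicase paralogues had a like order of libraries. Ddx5 had 2178, 2168 and 1772 CPM in Ogt-KD and 2488, 2322 and 2016 CPM in control libraries (-0.16, SE 0.15). Ddx17 had 816, 769.8 and 572 CPM in Ogt-KD and 826, 804 and 755 CPM in control libraries (-0.14, SE 0.15). In both genes replicate 3 was the lowest library of its group, and leaving out that Ogt-KD library gave -0.07 for Ddx5 and -0.01 for Ddx17.

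**Figure D4:**
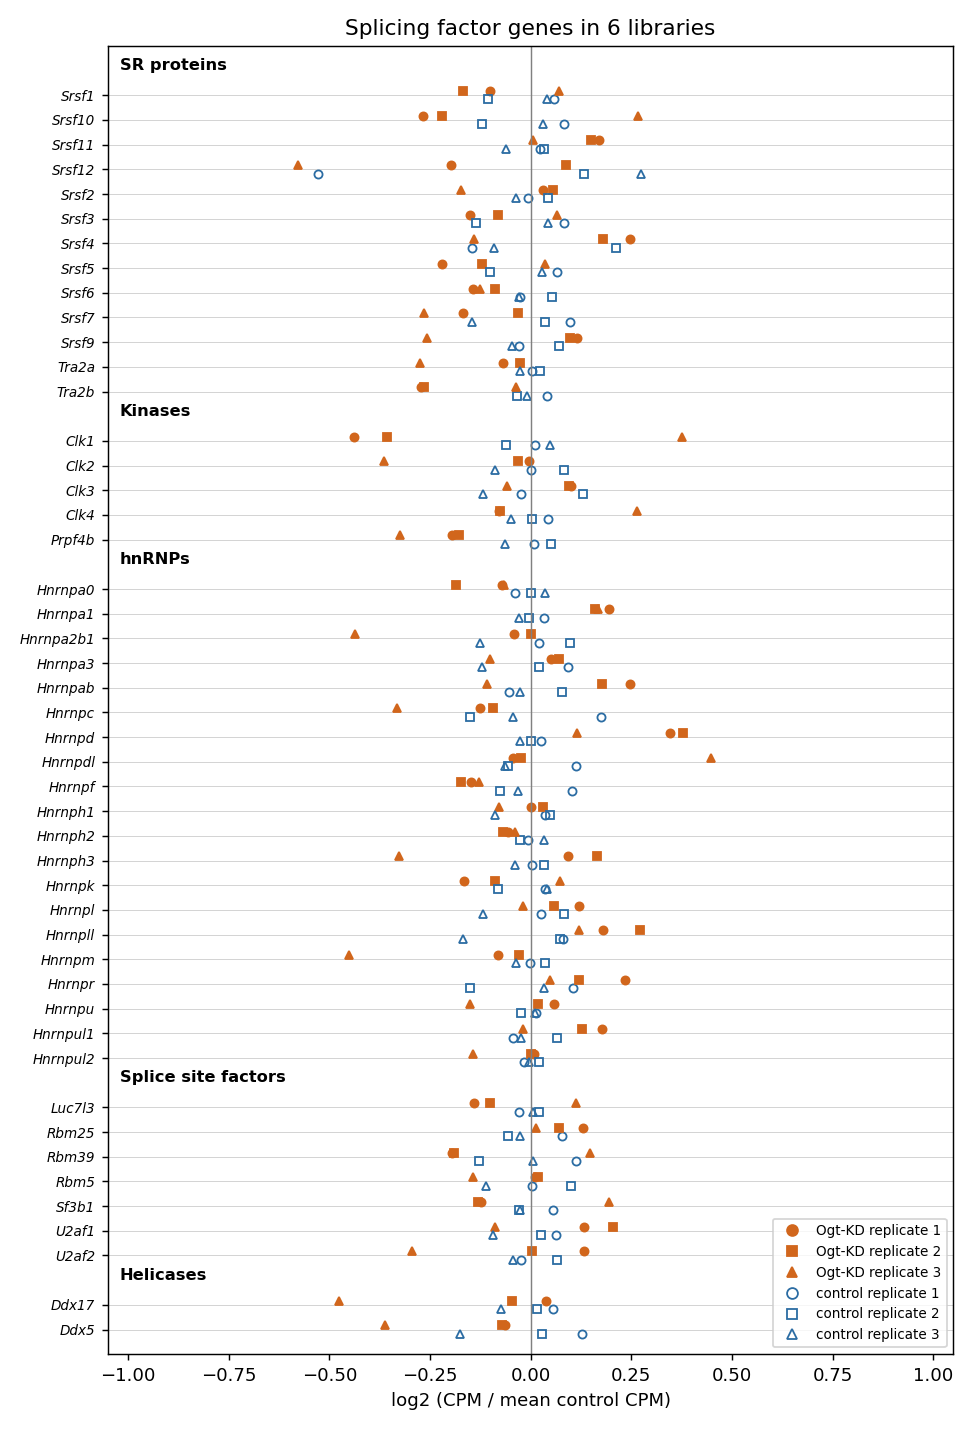
Log2 ratio of each library's CPM to the mean control CPM for the 47 members, by role, with Ogt-KD libraries as filled and control libraries as open symbols, shaped by replicate number. The filled triangles of Ogt-KD replicate 3 lie far right for Hnrnpdl, Clk1, Srsf10 and Clk4 and far left for Srsf12, Ddx17, Hnrnpm and Hnrnpa2b1.

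Ogt-KD replicate 3 was the highest of 6 libraries for 9 members (19.1%) and the lowest for 18 (38.3%), against 24.4% and 25.3% of all genes tested. Besides Clk1, Clk4, Sf3b1 and Rbm39, its high members included Hnrnpdl, with 338, 343 and 476 CPM in Ogt-KD and 377, 335 and 333 CPM in control libraries. Srsf10, whose dephosphorylated protein represses splicing at heat shock, was another, with 176, 182 and 255 CPM in Ogt-KD and 225, 195 and 217 CPM in control libraries. Hnrnpdl, Srsf10, Hnrnpab, Hnrnpa2b1, Hnrnph2, Hnrnpc, Srsf1, Srsf2, Srsf3, Srsf4, Srsf11, Srsf12 and Hnrnpr were picked for description after their values were seen. So were Hnrnpm, Hnrnph3 and the cold-response genes Rbm3 and Cirbp. Rbm3 was at 308, 335 and 764 CPM in Ogt-KD and 345, 323 and 455 CPM in control libraries. Cirbp was at 131, 117 and 184 CPM in Ogt-KD and 119.7, 83.6 and 128 CPM in control libraries. The part of these differences in the members' values was not tested.

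Leaving out Ogt-KD replicate 3 brought 5 members to an unadjusted p under 0.05, against 18.4% of all genes in that fit. Hnrnpd and Hnrnpab (0.21) were on the higher side (9.59% of genes), and Clk1, Tra2b (-0.27) and Srsf10 (-0.25) on the lower (8.78%), and 0 members had an edgeR adjusted p under 0.05, against 0.0122% of genes. Without replicate 3 of both groups there were again 5, against 16.1% of genes, namely Hnrnpd on the higher side (8.87%) and Clk1, Tra2b, Srsf10 and Prpf4b on the lower (7.22%), and 0 after adjustment, against 0.214% of genes.

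Other cell types and states differed between the same libraries. The 10 cell cycle genes summed to 933, 894 and 676 CPM in Ogt-KD libraries and 347, 528 and 549 CPM in control libraries, with all 10 log2 fold changes above 0 and a median of 0.81. The 8 dendritic cell and macrophage markers summed to 1502, 2055 and 1709.7 CPM in Ogt-KD and 1353, 1396 and 1709.2 CPM in control libraries, with a median of 0.94. These sums pool opposite signs. The 5 dendritic cell and antigen presentation genes ran from 0.83 to 1.43 in log2 (1.12 to 1.83 with Ogt-KD replicate 3 left out), and the 3 macrophage genes from -0.71 to -0.58 (-1.72 to -0.97 with it left out). The 7 erythroid markers summed to 35.6, 49.0 and 143 CPM in Ogt-KD and 30.1, 18.5 and 43.7 CPM in control libraries, highest in Ogt-KD replicate 3. The 10 heat shock and cold response genes lay below 0 in 8 cases with a median of -0.61, and the smallest p values were those of Dnajb4 (-0.76, SE 0.15) and Hspa8 (-0.61, SE 0.15). The 8 immediate early genes summed to 1757, 2277 and 1934 CPM in Ogt-KD and 2574, 3123 and 2284 CPM in control libraries, with 6 below 0 and a median of -0.31. The 3 nuclear noncoding RNAs summed to 3826, 4419 and 2258 CPM in Ogt-KD and 3295, 3283 and 2771 CPM in control libraries, with a median of 0.071 (0.33 with Ogt-KD replicate 3 left out). The B cell, neutrophil, and CD8 T and NK markers summed to at most 208 CPM in any library. All 6 B cell markers lay above 0 in log2 fold change (median 0.24), as did all 6 neutrophil markers (median 0.31). Of the 4 CD8 T and NK markers tested, 3 lay above 0 (median 0.17). None of these genes passed in edgeR, and their part in the members' values was not tested.

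**Figure D5:**
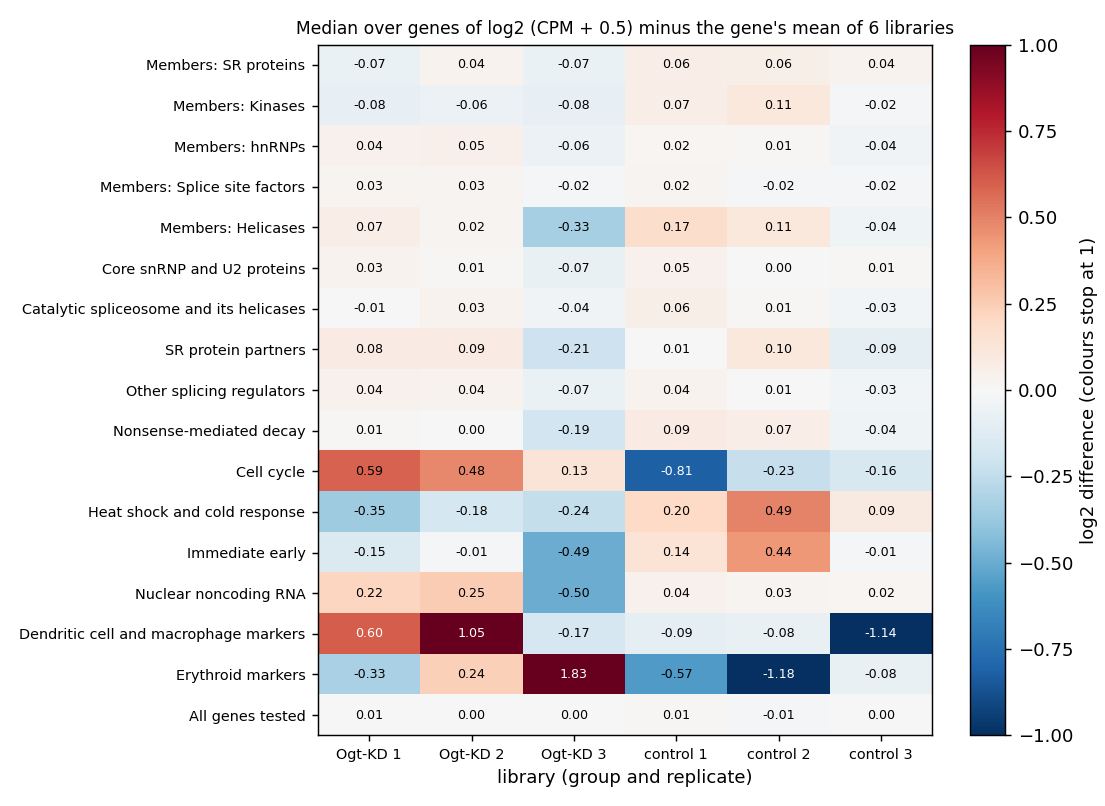
Median over the genes of each role or list of log2 (CPM + 0.5) minus the gene's mean over 6 libraries, one column per library with Ogt-KD on the left (red above, blue below 0). The 5 roles of the members stay within 0.11 of 0 except the 2 helicases, which reach -0.33 in Ogt-KD replicate 3, while the cell cycle, dendritic cell and erythroid rows move by up to 1.83.

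Other splicing genes are given for comparison. Of 29 core snRNP and U2 proteins, 10 lay above and 19 below 0 (median log2 fold change -0.02, and 0.007 with Ogt-KD replicate 3 left out), and of 16 catalytic spliceosome proteins and helicases, 3 lay above and 13 below 0 (median -0.04). The 8 partners of SR proteins, such as the cytoplasmic kinase Srpk2 (-0.10, SE 0.08) and the speckle protein Pnn (-0.11, SE 0.11), had a median of -0.04, and 0.047 with that library left out. The 10 nonsense-mediated decay factors had a median of -0.07. It was -0.02 with Ogt-KD replicate 3 left out and -0.08 without replicate 3 of both groups. Among them, Smg1, the kinase of Upf1, had 704, 765 and 527 CPM in Ogt-KD and 965, 949.96 and 743 CPM in control libraries (-0.41, SE 0.18). No gene of these 4 lists passed in edgeR, and 0 reached an unadjusted p under 0.05.

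Of 28 tested genes among the other splicing regulators, 15 lay above and 13 below 0 with a median of 0.01. In edgeR 0 passed and 2 had an unadjusted p under 0.05. Mbnl1, which regulates exon choice in differentiating cells, had 1241, 1368 and 1412 CPM in Ogt-KD and 1130.3, 947 and 1069 CPM in control libraries, without overlap between the groups (0.35, SE 0.12, edgeR adjusted p = 0.6). This fold change was larger than that of any member.

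The promoters of the 2 members with the smallest p are shown as the regulatory sequence next to those values. Sequences are from RefSeq on GRCm38.p6, where 43 of the 47 members matched an entry of 250 bases before to 50 bases after the transcription start. Capitals mark the motifs searched on both strands. These were the GC box GGGCGG, the ETS core CCGGAA, the CCAAT box, the TATA box TATAAA, the cyclic AMP response element TGACGTCA and the heat shock element pair TTCNNGAA.
Hnrnpd, chr5:99978889-99979188, minus strand: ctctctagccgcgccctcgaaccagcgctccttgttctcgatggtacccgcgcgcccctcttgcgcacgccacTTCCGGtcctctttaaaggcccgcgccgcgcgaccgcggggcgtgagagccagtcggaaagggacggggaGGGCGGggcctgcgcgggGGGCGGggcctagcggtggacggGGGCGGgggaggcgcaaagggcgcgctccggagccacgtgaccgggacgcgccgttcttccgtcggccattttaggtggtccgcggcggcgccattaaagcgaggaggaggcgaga
Prpf4b, chr13:34875279-34875578, plus strand: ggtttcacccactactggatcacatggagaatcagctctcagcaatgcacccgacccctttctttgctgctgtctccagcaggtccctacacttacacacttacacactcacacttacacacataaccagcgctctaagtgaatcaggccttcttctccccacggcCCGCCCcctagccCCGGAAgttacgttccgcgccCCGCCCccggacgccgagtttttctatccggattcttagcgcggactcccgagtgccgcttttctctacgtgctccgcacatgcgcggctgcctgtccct
Both windows held the GC box and the ETS core and none of the other motifs. Over the members, 33 of 43 promoters (76.7%) held the GC box, against 63.5% of 9857 promoters of tested protein-coding genes. The ETS core was in 15 (34.9%, against 28.7%), the CCAAT box in 22 (51.2%, against 39.1%) and the TATA box in 5 (11.6%, against 7.0%). The heat shock element pair was in 3 (6.98%, against 6.88%) and the cyclic AMP response element in 2 (4.65%, against 3.23%). The members' promoters had a median GC content of 63.3%, against 60.7% over those promoters. Some windows start transcription far from the gene's 5′ end in the deposited table. The distance was 4474 bases for Rbm25, 2349 for Hnrnpl, 1402 for Hnrnpm, 1384 for Clk4 and 1226 for Hnrnpk. The Rbm25 and Hnrnpm windows are among those counted for the TATA box.

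Some counts can hold reads of another gene. By annotation, 23 members overlapped another gene, 19 of them one on the opposite strand. No label or header used here states the strand setting of the counting. Overlapping genes were most abundant relative to the member for Hnrnph3, whose neighbour Rufy2 summed to 105% of its count, Srsf4 (A930004J17Rik, 57.1%), Clk3 (Edc3, 39.7%) and Srsf2 (Mettl23, 26.7%). Of the members named above as not overlapping between groups, Hnrnpd was overlapped by the antisense gene Gm17092 at 1.86% of its count, and Hnrnpf by 4933440N22Rik at 1.37%.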

How the data were processed

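RNA was measured in 6 libraries, 3 Ogt-KD and 3 control, each from a separate mouse per the labels. The authors deposited integer read counts per Ensembl gene, and their FPKM, which were used here to compare levels between genes. Bowtie2 2.0.6, TopHat2 2.0.9 and the build mm9 are named per the submitters' processing notes, and the counting tool is not given in the sources used here. Of 54532 gene identifiers 54409 matched GENCODE M21 (GRCm38), 53499 with identical coordinates, so positions are on GRCm38. Gene length, deposited in bases, entered no test. The authors' deposited log2 fold change, p-value and adjusted p-value were read beside the tests, and their mean normalised signal per group, also deposited, was not used.

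Counts were tested with edgeR 4.0.16 (quasi-likelihood F test, robust, TMM, filterByExpr) in R 4.3.3 over all genes, with a Benjamini-Hochberg threshold of 0.05, and the procedure was tested on simulated data. Intervals are 95%. Alternatives were RLE size factors, DESeq2 1.42.0, limma-voom (limma 3.58.1), no filter, the replicate number as a block, each library left out, and replicate 3 of both groups left out. Deviations of same-numbered libraries correlated at 0.109, 0.346 and 0.523 across genes. Pairs of unlike numbers ran from -0.418 to 0.267. Ogt-KD replicate 1 correlated more with control replicate 2 (0.267) than with control replicate 1 (0.109), so the pairing is not clear from the data. The labels state none, so the main fit was unpaired and the block was an alternative. The members and lists were chosen with earlier results of these data known. The text names, per role, the members with the 4 smallest p and the 2 highest FPKM, and all kinases, helicases and splice site factors. Protein sequences were not used here. Not every gene of the comparison lists is reported here.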

Additional observations from a re-analysis of the deposited data

How the results depend on the processing

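No member passed an adjusted p of 0.05 in edgeR or in any of the 12 alternatives. The number at an unadjusted p under 0.05 was 2 with all libraries and 2 with RLE size factors, DESeq2, limma-voom and no filter. It was 3 with the replicate block (13.2% of all genes in that fit), which added Hnrnpll and changed no call. It was 5 without replicate 3 of both groups, and ran from 0 to 5 with each library left out, 5 being without Ogt-KD replicate 3. These fits hold fewer samples. The median log2 fold change of the members stayed between -0.06 and -0.02. Members whose groups do not overlap numbered 9 with all libraries, against 13.3% of all genes tested. They numbered 32 without replicate 3 of both groups, and 9 to 25 with each library left out, where fewer libraries make a gap easier. The share of all genes was not counted in those smaller settings, so these counts cannot be read as a result about the members. Of the 24 members that the naming rule picks, 7 reversed sign in some setting. Over all 47 members, the sign turned for 10 without Ogt-KD replicate 3 and for 9 without replicate 3 of both groups. Among them, Hnrnpdl had -0.04 without Ogt-KD replicate 3, against 0.15 with all libraries. Without replicate 3 of both groups Clk4 had -0.10 and U2af2 0.046. With each library left out, the log2 fold change ran for Clk1 from -0.40 to 0.059, for Clk4 from -0.079 to 0.11, for Clk3 from -0.030 to 0.12, for Sf3b1 from -0.13 to 0.044, for U2af2 from -0.14 to 0.067, for Rbm5 from -0.11 to 0.018 and for Luc7l3 from -0.12 to 0.014. For Clk1 the sign turned without Ogt-KD replicate 1 or 2. The cause was not tested.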
